A study of Homo sapiens with 3 samples.

Results

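The 10 mucin genes MUC1, MUC2, MUC3A, MUC4, MUC5AC, MUC5B, MUC6, MUC13, MUC16 and MUC20 were followed in QBC-939 cells, an established human line from a bile duct cancer (cholangiocarcinoma). They were found in the table of gene counts by their symbols, and all 10 of the 10 sought were present among 30923 genes. Messenger RNA was measured by RNA sequencing in cells overexpressing miR-182-5p, in cells overexpressing miR-183-5p, and in cells given a control that the labels call NC without spelling it out. All 3 groups are the same line with its genotype given as WT, and each is 1 library, so no group has a replicate. Values given "with" a microRNA are those of the library overexpressing it, and values "in NC" those of the control library. No test between conditions was possible, no p-value is given, and every interval below is a 95% interval for counting error only. Library totals were 61709874 counts with miR-182-5p, 67427313 with miR-183-5p and 64516706 in NC. Levels are given as CPM (counts scaled to a common library total) when 1 gene is compared between libraries, and as FPKM, which also divides by transcript length, when different genes are compared. Whether the microRNAs were raised was not checked, since their own levels were not analysed here.

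Mucins are large glycoproteins whose protein core carries repeated stretches rich in serine and threonine, to which dense sugar chains (O-glycans) are attached. The gel-forming mucins MUC2, MUC5AC, MUC5B and MUC6 are secreted, join end to end and make up the mucus layer. The membrane mucins MUC1, MUC3A, MUC4, MUC13, MUC16 and MUC20 stay anchored in the cell surface, where their outer part forms a barrier and the tail of several of them takes part in signalling. Gastric-type mucins such as MUC5AC are known to appear in biliary neoplasia.

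A microRNA recognises messenger RNAs mainly through its seed, bases 2 to 8 from its 5′ end, which pair with complementary sites in the 3′ untranslated region (3′ UTR). The mature sequences are shown because the seed decides which mucin transcripts hold a site. They come from RefSeq on GRCh38.p14, where miR-182-5p lies at chr7:129770447-129770470 and miR-183-5p at chr7:129774967-129774988, both on the minus strand. They are written 5′ to 3′ with the seed in capitals.
miR-182-5p: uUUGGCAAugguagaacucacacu
miR-183-5p: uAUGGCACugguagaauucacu
The seeds share 5 of 7 bases and differ by the substitutions U2A and A8C, which give the miR-182-5p base, the position counted from the 5′ end of the microRNA, and the miR-183-5p base. The 7-base site complementary to the seed is TTGCCAA for miR-182-5p and GTGCCAT for miR-183-5p.

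QBC-939 cells transcribed mainly 1 mucin in all 3 libraries. MUC13, a membrane mucin of the gut and bile duct surface, had 82.8 FPKM with miR-182-5p, 67.01 with miR-183-5p and 56.1 in NC. It ranked 264th, 360th and 483rd among the genes detected in those libraries, and it made up 84.9%, 84.0% and 80.3% of the FPKM summed over the 10 mucins. MUC5AC, the gel-forming mucin of the stomach surface, came next with 4.74, 4.68 and 5.59 FPKM in the same order of libraries. The level of MUC13 was thus 17.5 times that of MUC5AC with miR-182-5p, 14.3 times with miR-183-5p and 10.0 times in NC.

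The other 4 measured mucins, all membrane mucins, followed MUC5AC in FPKM. MUC20, which is known to bind the receptor tyrosine kinase MET, had 4.44 FPKM with miR-182-5p, 3.73 with miR-183-5p and 3.79 in NC. MUC1, the broadly expressed epithelial mucin with a signalling tail, had 3.33, 2.21 and 2.16 FPKM in that order. MUC3A, a membrane mucin of the intestine, had 1.82, 1.88 and 1.98 FPKM, and MUC4, known as a partner of the receptor ERBB2, had 0.297, 0.169 and 0.208 FPKM. The order MUC13, MUC5AC, MUC20, MUC1, MUC3A, MUC4 was the same in each library. Neighbours in that order had overlapping counting intervals for MUC5AC and MUC20 with miR-182-5p and for MUC1 and MUC3A in NC.

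The other 4 mucins were close to the limit of detection. MUC6, the gel-forming mucin of gastric glands, had 0.0417, 0.0434 and 0.0356 FPKM with miR-182-5p, with miR-183-5p and in NC. MUC2, the gel-forming mucin of intestinal goblet cells, had 0.0302, 0.0504 and 0.0102 FPKM, and MUC5B, known from airways and gallbladder, had 0.0128, 0.0177 and 0.0191 FPKM. MUC16, which carries the CA-125 epitope, had 0.00236 FPKM with miR-182-5p and no count in either of the others. Among the gel-forming mucins the cells therefore transcribed almost only MUC5AC, whose FPKM was 114 times that of MUC6 with miR-182-5p, 108 times with miR-183-5p and 157 times in NC. The order among MUC6, MUC2 and MUC5B was not fully resolved at this depth in any library. All neighbours overlapped with miR-182-5p and in NC, and MUC2 overlapped MUC6 with miR-183-5p.

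**Figure D1:**
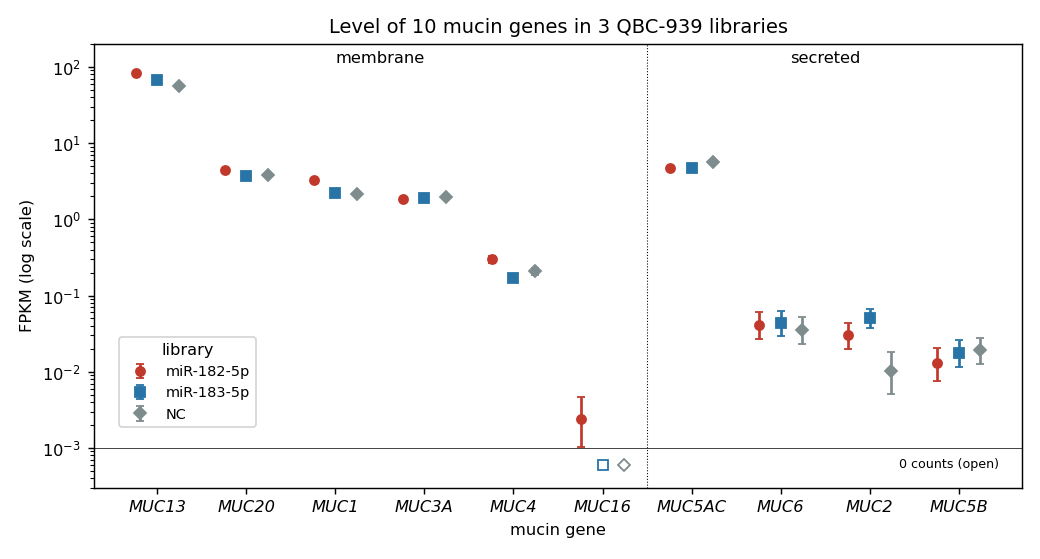
Level of each mucin (FPKM, log scale) with miR-182-5p, with miR-183-5p and in NC, membrane mucins left and secreted mucins right; bars are 95% counting intervals and open symbols below the line are counts of 0. MUC13 lies between 56.1 and 82.8 FPKM, every other mucin at 5.59 FPKM or lower, and MUC16 was counted with miR-182-5p only.

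Summed over the 6 membrane mucins, the level was 92.6 FPKM with miR-182-5p, 74.99 with miR-183-5p and 64.2 in NC. Summed over the 4 secreted mucins it was 4.83, 4.79 and 5.66 FPKM in the same order. Secreted mucins held 4.95%, 6.01% and 8.10% of all mucin FPKM. These sums follow their main members, MUC13 and MUC5AC. In counts, the 10 genes took 529 CPM with miR-182-5p, 448 with miR-183-5p and 429.8 in NC.

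Comparisons between libraries were made for genes with a mean of at least 0.5 CPM over the 3 libraries, which holds for 6 of the 10 mucins (MUC1, MUC3A, MUC4, MUC5AC, MUC13 and MUC20) and for 16587 genes in all. A difference is counted when the CPM ratio is at least 1.5 in either direction, which is a rule of size and not a test. Both microRNA libraries are set against the same NC library, so the comparisons with NC share its errors.

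In the miR-182-5p library 3 membrane mucins stood above NC by about the same factor, while MUC5AC and MUC3A stood below it. MUC1 had 1149 counts (18.6 CPM) with miR-182-5p, 836 counts (12.4 CPM) with miR-183-5p and 795 counts (12.3 CPM) in NC. The miR-182-5p library was the high one, and the miR-183-5p and NC libraries had nearly the same CPM. The ratio of miR-182-5p to NC was 1.51 for MUC1 (interval 1.38 to 1.66). MUC1 was the only 1 of the 6 measured mucins at 1.5-fold or more above NC, and none was as far below it. Among all measured genes 14.7% were that much higher and 3.94% that much lower with miR-182-5p, so 1 of 6 is near the background share.

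MUC13 had 21170 counts (343 CPM) with miR-182-5p, 18721 counts (278 CPM) with miR-183-5p and 15209 counts (236 CPM) in NC. The miR-182-5p library was highest and NC lowest, and none of the 3 counting intervals overlapped. Its ratio of miR-182-5p to NC was 1.46 (1.43 to 1.49), just outside the limit of 1.5, as MUC1 was just inside it. A ratio at least as high was found for 14.3% of all measured genes in the case of MUC1 and for 16.3% in the case of MUC13. Low counts spread ratios widely, and among the 10163 genes of at least 10 CPM on average, a limit chosen after the values were seen, the shares were 3.37% for MUC1 and 4.59% for MUC13.

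MUC4 had 459 counts (7.44 CPM) with miR-182-5p, 285 counts (4.23 CPM) with miR-183-5p and 342 counts (5.30 CPM) in NC. Here the miR-183-5p library was the low one, and NC lay between both microRNA libraries. The ratio of miR-182-5p to NC was 1.40 (1.22 to 1.62). MUC20 had 2220 counts (36.0 CPM), 2035 counts (30.2 CPM) and 2009 counts (31.1 CPM) with miR-182-5p, with miR-183-5p and in NC, a ratio of miR-182-5p to NC of 1.16 (1.09 to 1.23).

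MUC5AC went the other way, lower in both microRNA libraries than in NC by about the same factor. It had 6049 counts (98.0 CPM) with miR-182-5p and 6521 counts (96.7 CPM) with miR-183-5p, against 7562 counts (117 CPM) in NC. The ratio to NC was 0.836 (0.808 to 0.865) with miR-182-5p and 0.825 (0.798 to 0.853) with miR-183-5p. The counting intervals of the microRNA libraries overlapped each other and neither reached that of NC. MUC3A had 1520 counts (24.6 CPM) with miR-182-5p, 1710 counts (25.4 CPM) with miR-183-5p and 1748 counts (27.1 CPM) in NC. Its ratios to NC were 0.909 (0.848 to 0.974) with miR-182-5p and 0.936 (0.875 to 1.001) with miR-183-5p.

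With miR-183-5p, no measured mucin differed from NC by 1.5-fold or more, where 7.09% of all measured genes were that much higher and 4.18% that much lower. MUC13 had the highest ratio of the 6, at 1.18 (1.15 to 1.20), and a ratio as high was found for 18.9% of all measured genes and for 7.04% of those of at least 10 CPM on average. MUC1 was at 1.01 (0.912 to 1.11) and MUC20 at 0.969 (0.911 to 1.03), both with intervals that include 1. MUC4 was at 0.797 (0.679 to 0.936), the lowest ratio of the 6. For MUC5AC, a ratio as low as its own with miR-183-5p was found for 12.5% of all measured genes and 6.37% of those of at least 10 CPM. With miR-182-5p these shares were 19.8% and 20.8%.

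Set directly against each other, the microRNA libraries differed most in MUC4, whose CPM with miR-182-5p was 1.76 times that with miR-183-5p (1.52 to 2.05). MUC1 followed at 1.502 times (1.37 to 1.64). These were the 2 of 6 measured mucins at 1.5-fold or more, against 9.36% of all measured genes higher with miR-182-5p and 2.99% lower. MUC13 was at 1.24 times (1.21 to 1.26) and MUC20 at 1.19 times (1.12 to 1.27). MUC5AC at 1.01 times (0.979 to 1.05) and MUC3A at 0.971 times (0.906 to 1.04) had intervals that include 1.

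Over the 6 measured mucins the median log2 ratio was 0.35 for miR-182-5p over NC, -0.07 for miR-183-5p over NC and 0.28 for miR-182-5p over miR-183-5p. Over all measured genes the medians were 0.03, -0.02 and 0.04. The ratio was above 1 in 4 of 6 mucins for miR-182-5p over NC, where 53.4% of all measured genes were above 1, and in 2 of 6 for miR-183-5p over NC, where the share was 46.5%. Mitochondrially encoded genes took 16.7%, 16.1% and 13.5% of the counts with miR-182-5p, with miR-183-5p and in NC. Their part in the mucin ratios is measured by scaling to nuclear counts alone, which puts MUC13 at 1.51 and MUC1 at 1.57 for miR-182-5p over NC. Factors estimated from the bulk of genes (edgeR's TMM or DESeq2's size factors) put them at 1.40 and 1.45, so whether either passes 1.5-fold depends on the scaling.

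**Figure D2:**
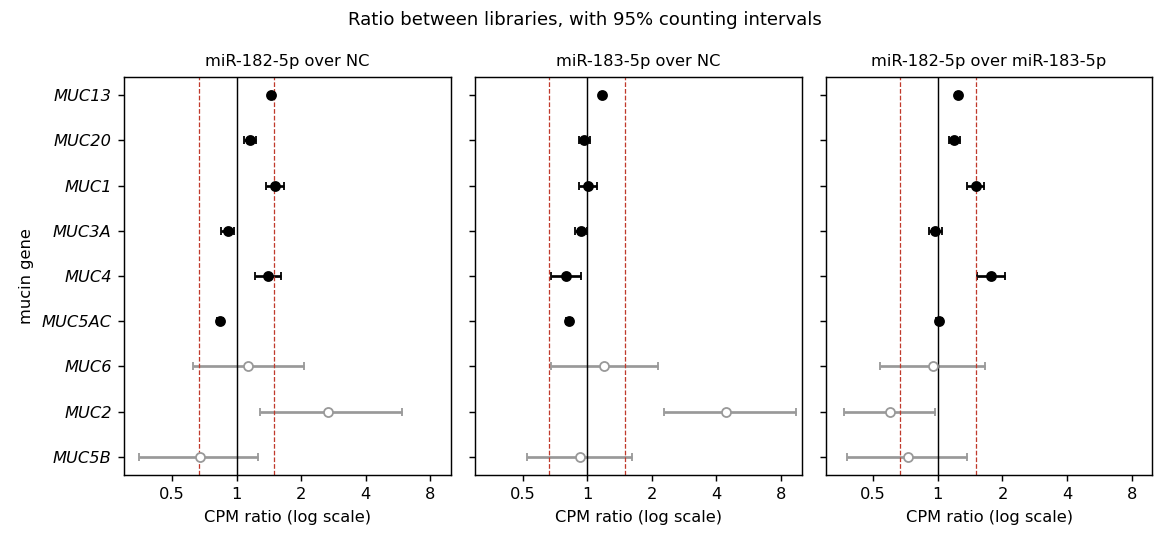
CPM ratio of each mucin (log scale) with its 95% counting interval, for miR-182-5p over NC, miR-183-5p over NC and miR-182-5p over miR-183-5p; filled points are the 6 measured mucins, open points have a mean under 0.5 CPM, and dashed lines mark 1.5-fold in each direction. MUC16, with a count of 0 in 2 libraries, has no point; MUC5AC lies left of 1 in both comparisons with NC, and MUC1 at 1.51 lies on the dashed line for miR-182-5p over NC.

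The 4 mucins of low level rest on few counts. MUC2 had 28 counts with miR-182-5p and 51 with miR-183-5p, against 11 in NC. Both microRNA libraries were above NC, with CPM ratios of 2.66 (1.28 to 5.92) and 4.44 (2.28 to 9.44). MUC6 had 26, 30 and 24 counts with miR-182-5p, with miR-183-5p and in NC, and MUC5B had 18, 27 and 28. For both genes the interval of every ratio included 1, so no difference was detectable at this depth. MUC16 had 8 counts with miR-182-5p and 0 in the miR-183-5p and NC libraries, where the floor of 3 counts per library used for a count of 0 is 0.0445 and 0.0465 CPM, and the 95% interval of a count of 0 reaches 0.0547 and 0.0572 CPM. Against that floor the 8 counts of MUC16 were at least 2.79-fold higher with miR-182-5p than in NC. With the counting error of the 8 counts included, the 95% interval of the ratio starts at 1.79. None of these 4 mucins reached a mean of 0.5 CPM, and they enter none of the counts of genes past 1.5-fold above.

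The gel-forming mucins lie side by side on chromosome 11. In the coordinates of the file, most of which share a start or end with the GRCh38 annotation, MUC6 (ENSG00000184956) spans chr11:1012823-1036718 on the minus strand, and MUC2 (ENSG00000198788, chr11:1074875-1110511), MUC5AC (ENSG00000215182, chr11:1157953-1201138) and MUC5B (ENSG00000117983, chr11:1223066-1262172) follow on the plus strand. MUC5AC was the only one of the row above a mean of 0.5 CPM. The flanking genes were transcribed at levels like that of MUC5AC. AP2A2, which encodes a clathrin adaptor subunit, had 1.05 and 1.04 times its NC level with miR-182-5p and miR-183-5p. TOLLIP, which encodes a regulator of Toll-like receptor signalling, had 0.826 and 0.876 times its NC level, near the 0.836 and 0.825 of MUC5AC. A link between TOLLIP and MUC5AC was not tested.

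MUC20 (ENSG00000176945, chr3:195720884-195741123, plus strand) and MUC4 (ENSG00000145113, chr3:195746765-195811973, minus strand) are neighbours 5642 bases apart. The next measured gene beyond MUC4, TNK2, which encodes a non-receptor tyrosine kinase, was at 1.30 times NC with miR-182-5p and 1.05 times with miR-183-5p. MUC20 is hard to count apart from its surroundings. The long non-coding gene MUC20-OT1 covers 19081 of its 20240 bases on the same strand, and of the windows of 50 bases along the longest annotated MUC20 transcript 69.1% also occur in transcripts of other genes, 35.8% in those of MUC20-OT1. MUC20-OT1 had 3276 counts with miR-182-5p and 2888 with miR-183-5p, against 2369 in NC, and the pseudogene MUC20P1 had 721, 815 and 688 in that order. How the authors' counting divided reads among these genes is not given in the sources used here, so the values of MUC20 are uncertain. Repeats within a gene varied between mucins. Of the 50-base windows of the longest transcript, 42.4% recur within the same transcript in MUC1, 29.2% in MUC5B and 28.2% in MUC4. In MUC5AC 21.45% recur, in MUC2 21.4%, and in MUC13 none do. Whether repeats affected the FPKM comparisons between mucins was not tested.

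MUC3A (ENSG00000169894, chr7:100949534-100968347, plus strand) lies 1276 bases from MUC12, another membrane mucin. MUC12 had 829 counts with miR-182-5p and 595 with miR-183-5p, against 460 in NC. Its ratio to NC was 1.88 (1.68 to 2.12) with miR-182-5p, where MUC3A was at 0.909. The next membrane mucin on the same stretch, MUC17, had 200, 156 and 129 counts and a ratio of 1.62 (1.29 to 2.04) with miR-182-5p. Of the single mucin genes, MUC1 (ENSG00000185499) lies at chr1:155185824-155192915, MUC13 (ENSG00000173702) at chr3:124905442-124934751 and MUC16 (ENSG00000181143) at chr19:8848844-8981342, all on the minus strand. ITGB5, the integrin gene 4024 bases from MUC13, was at 0.928 times NC with miR-182-5p, where MUC13 was at 1.46.

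**Figure D3:**
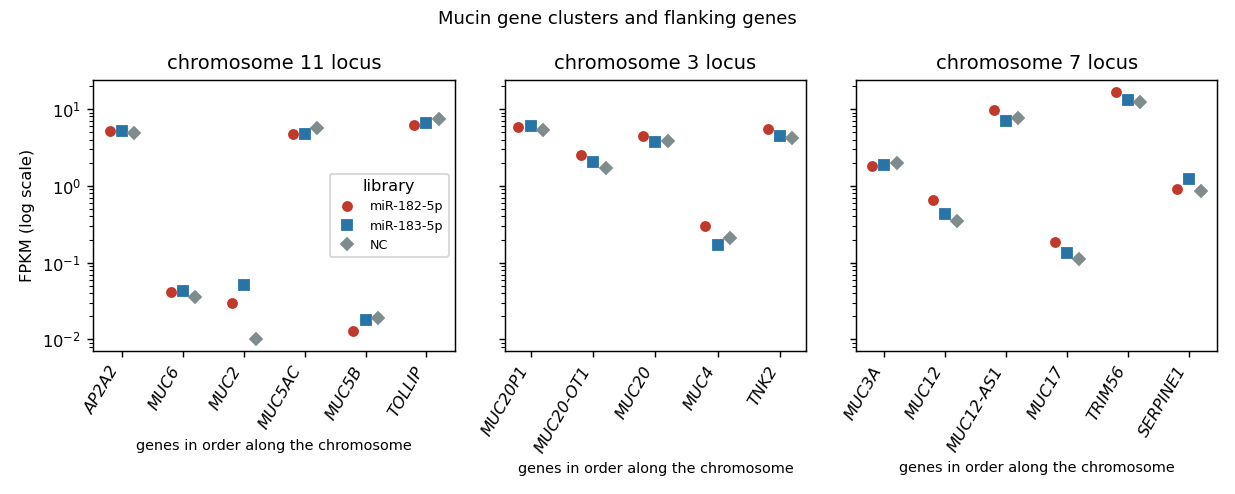
Level (FPKM, log scale) of the mucins and their flanking genes in chromosomal order at 3 loci, with miR-182-5p, with miR-183-5p and in NC. On chromosome 11 MUC5AC lies between 4.68 and 5.59 FPKM and the other 3 gel-forming mucins below 0.06; on chromosome 7 MUC12 and MUC17 have their highest point with miR-182-5p and MUC3A its lowest.

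No mucin had a seed site for miR-182-5p in its longest annotated 3′ UTR, among the 9 that have one in GENCODE release 29 on GRCh38. In that annotation 1931 of 12860 measured genes, or 15%, held such a site. MUC1, MUC13 and MUC4, which were higher with miR-182-5p, and MUC5AC, which was lower, thus all lacked it. The 12860 genes had a median 3′ UTR of 1314 bases, and the 9 mucins had 88 to 1301 bases. Shares of genes with a site are therefore not matched to the mucins in length. MUC5B, MUC6 and MUC16 were searched although their counts put them outside the 12860. For miR-183-5p, 12.3% of genes held a site, and 2 mucins did, MUC13 with 1 and MUC1 with 2. The sites are shown with the bases around them on the minus strand, the strand of both genes, in the orientation of the messenger RNA, and the 7 bases complementary to the seed are in capitals. The coordinates are those of the capitals.
MUC13 (chr3:124905686-124905692): gtttctgaggtGTGCCATtggggcctcagc
MUC1 first site (chr1:155187562-155187568): gcgtgagtgatGTGCCATttcctttctctg
MUC1 second site (chr1:155186094-155186100): gtggccagccaGTGCCATtccactccactc
The MUC13 site lies 1051 to 1057 bases after the stop codon. The first MUC1 site is within the coding sequence of 12 of the 21 annotated coding transcripts of MUC1 and in the 3′ UTR of 2, and the second is in the 3′ UTR of 13. In the miR-183-5p library, both genes with a site were at or above NC, MUC1 at 1.01 and MUC13 at 1.18. A match is a string of letters and not a shown site of action.

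Promoters of 2 mucins are shown because MUC1 and MUC13 had the highest ratios of miR-182-5p to NC among the measured mucins and differ in promoter sequence. Each runs from 250 bases before to 50 bases after a RefSeq transcript start on GRCh38.p14, minus strand, and capitals mark the GC box GGGCGG and the TATA box TATAAA.
MUC1 (chr1:155192866-155193165): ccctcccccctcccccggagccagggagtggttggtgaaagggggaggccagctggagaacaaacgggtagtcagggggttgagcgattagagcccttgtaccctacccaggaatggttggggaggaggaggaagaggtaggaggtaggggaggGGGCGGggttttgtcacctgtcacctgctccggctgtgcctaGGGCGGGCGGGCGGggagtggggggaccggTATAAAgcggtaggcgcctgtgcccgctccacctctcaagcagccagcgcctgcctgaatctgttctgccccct
MUC13 (chr3:124934702-124935001): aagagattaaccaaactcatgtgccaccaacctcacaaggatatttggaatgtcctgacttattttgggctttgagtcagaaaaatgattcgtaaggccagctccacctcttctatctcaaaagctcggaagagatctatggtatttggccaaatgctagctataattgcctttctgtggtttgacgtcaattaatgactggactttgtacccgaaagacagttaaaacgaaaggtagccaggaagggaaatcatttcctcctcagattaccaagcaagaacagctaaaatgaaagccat
The MUC1 window is 65.7% G and C and holds GGGCGG 4 times, 3 of them overlapping one another, and TATAAA once. The MUC13 window is 41.0% G and C and holds neither motif on either strand. Of 35116 RefSeq promoters of the same length 45.0% hold GGGCGG and 11.5% hold TATAAA. The other motifs searched on both strands were ACGTG, TTCNNNGAA and CANNTG. Of these both MUC1 and MUC13 held only CANNTG, present in 68.7% of promoters.

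Other genes of mucin biology were taken from 5 lists and read by the same 1.5-fold rule, against the background shares. These were 14.7% higher and 3.94% lower with miR-182-5p, and 7.09% higher and 4.18% lower with miR-183-5p. Of 19 other mucins and mucin-like glycoproteins 11 were measured. With miR-182-5p, 2 of the 11 were higher than NC (MUC12 and MUC17) and none lower, and with miR-183-5p none was past the limit. Their median log2 ratio was 0.13 with miR-182-5p and 0.08 with miR-183-5p. The mucin-like surface protein TMEM123 had the highest level, with 90.6, 94.9 and 102 FPKM with miR-182-5p, with miR-183-5p and in NC, above MUC13. PODXL, the podocalyxin of apical membranes, was at 1.16 times NC with miR-182-5p, and the endolysosomal sialomucin CD164 at 1.02 times.

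Of 35 genes that build mucin-type O-glycans 29 were measured. With miR-182-5p 1 was higher than NC and 2 lower, against 14.7% and 3.94% of all measured genes. FUT3, the Lewis blood group fucosyltransferase, had 266 counts with miR-182-5p and 158 with miR-183-5p, against 119 in NC, a ratio of miR-182-5p to NC of 2.34 (1.88 to 2.93). GALNT4, one of the enzymes that attach the first sugar, had 382 counts with miR-182-5p and 1896 with miR-183-5p, against 1517 in NC, a ratio of 0.263 (0.235 to 0.295) for miR-182-5p over NC. GALNT4 lies wholly within the read-through gene POC1B-GALNT4 on the same strand, which had 2392, 184 and 311 counts in the same order. The split of reads between them runs opposite with miR-182-5p, so the value of GALNT4 is uncertain. GALNT8, at 0.461 (0.317 to 0.661), lies wholly within another gene on the same strand too. With miR-183-5p none of the 29 was past the limit, where 7.09% of all measured genes were higher and 4.18% lower. The branching enzyme GCNT3, which had the highest mean FPKM of the list, was at 1.05 times NC with miR-182-5p and 0.755 times with miR-183-5p.

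Of 27 genes of mucin folding, packaging and secretion 20 were measured. With miR-182-5p 1 was higher than NC and none lower, against 14.7% and 3.94% of all measured genes. With miR-183-5p 1 was higher and 1 lower, against 7.09% and 4.18%. FCGBP, a protein of the mucus gel, had 775 counts with miR-182-5p and 580 with miR-183-5p, against 497 in NC, and at 1.63 (1.46 to 1.83) was the 1 gene past the limit with miR-182-5p. With miR-183-5p the tissue kallikrein KLK1 was higher at 1.62 (1.29 to 2.05) and the crosslinking enzyme TGM2 lower at 0.597 (0.469 to 0.757). AGR2, the disulfide isomerase that mouse goblet cells need to make MUC2, had 44.0, 42.6 and 38.4 FPKM with miR-182-5p, with miR-183-5p and in NC, and the galectin gene LGALS4 had 112, 109 and 110.3 FPKM.

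Of 20 symbols listed for partners and sheddases of membrane mucins 19 were measured. The remaining symbol, NHERF1, is another name of SLC9A3R1, which is among the 19. With miR-182-5p 2 were higher and none lower, against 14.7% and 3.94% of all measured genes. None was past the limit with miR-183-5p, where 7.09% of all measured genes were higher and 4.18% lower. MMP14, a membrane protease known to shed MUC1, had 1236 counts with miR-182-5p and 870 with miR-183-5p, against 773 in NC, a ratio of 1.67 (1.53 to 1.83) for miR-182-5p over NC. MSLN, the mesothelin that binds MUC16, had 58, 26 and 33 counts and a ratio of 1.84 (1.18 to 2.91). MET, the partner of MUC20, was nearly level at 67.6, 68.1 and 67.8 FPKM with miR-182-5p, with miR-183-5p and in NC.

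Of 38 transcription factors reported at mucin genes 33 were measured. With miR-182-5p 2 of the 33 were higher than NC and 1 lower, against 14.7% and 3.94% of all measured genes. With miR-183-5p 1 was higher and 1 lower, against 7.09% and 4.18%. FOXA3, a forkhead factor that drives goblet cell differentiation in mouse airways, was lower in both microRNA libraries, with 585 and 592 counts against 923 in NC. Its ratios were 0.663 (0.596 to 0.736) with miR-182-5p and 0.614 (0.553 to 0.681) with miR-183-5p, the same direction as MUC5AC. That direction was common on the list, with ratios below 1 for 17 of the 33 with miR-182-5p and 23 with miR-183-5p. A link between FOXA3 and MUC5AC was not tested. GFI1, a factor of secretory cells in the mouse intestine, was higher in both, with 55 and 36 counts against 17 in NC and ratios of 3.38 (1.93 to 6.22) and 2.03 (1.11 to 3.85). GLI1, the effector of Hedgehog signalling, had 828 counts with miR-182-5p and 558 with miR-183-5p, against 463 in NC. It was past the limit with miR-182-5p at 1.87 (1.67 to 2.10) and at 1.15 (1.02 to 1.31) with miR-183-5p. KLF5 and JUN, the factors of highest and next highest mean FPKM on the list, stood between 0.882 and 0.920 times NC in both microRNA libraries. Same-strand overlaps with another gene were found for 5 of the 33 genes named by rule from these lists.

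**Figure D4:**
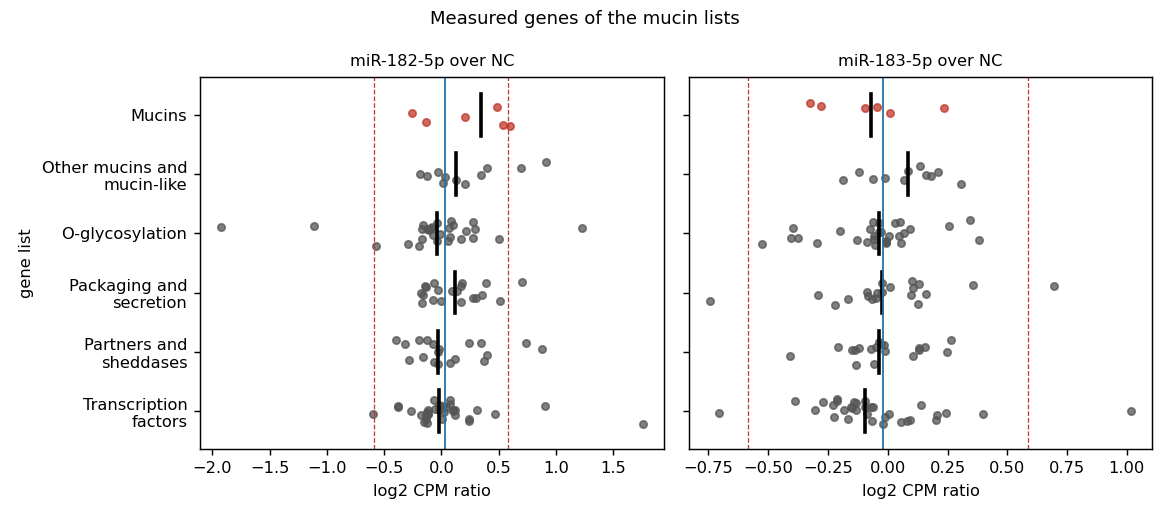
Log2 CPM ratio of every measured gene of the mucins and the 5 lists, for miR-182-5p over NC and miR-183-5p over NC (the horizontal scales differ). Black bars are list medians, the blue line is the median of all measured genes and dashed lines mark 1.5-fold; the mucin median lies at 0.35 with miR-182-5p and at -0.07 with miR-183-5p.

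Genes with the pattern most like that of the leading mucins were sought by the distance between pairs of log2 ratios to NC, over 3 libraries and 10163 genes. The 3 nearest to MUC13 were TMEM161B-AS1, ABHD15 and ZNF321P, at distances of 0.00765 to 0.0118, and 213 genes lay within 0.1. The 3 nearest to MUC5AC were HNRNPUL2, PIP4K2A and UIMC1, at 0.00965 to 0.0113, and 486 genes lay within 0.1. Over 3 libraries such likeness is common and serves as description only.

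The cells carried the markers listed for their labelled type, and some listed for other types. All 7 cholangiocyte markers, of which MUC1 is also one of the 10 mucins, had an FPKM of at least 1 in every library. EPCAM had 178, 179 and 171 FPKM and KRT19 had 76.4, 77.7 and 81.6 FPKM with miR-182-5p, with miR-183-5p and in NC. KRT7 was just above that limit, at 1.29, 1.46 and 1.03 FPKM. Of the 4 enterocyte markers analysed only VIL1 reached 1 FPKM, with 22.1, 20.35 and 21.7 FPKM. AQP5 alone did so among the 5 gland markers, and MUC5AC did so in every library among the 3 gastric foveolar markers analysed. None of the 4 hepatocyte markers analysed reached 1 FPKM in any library. Of the 6 intestinal goblet markers analysed 3 reached 1 FPKM in each library (TFF3, SPDEF and ATOH1), and MUC2, the defining one, did not. Fibroblast markers summed to 23.7, 16.2 and 14.9 CPM, highest with miR-182-5p as were MUC1, MUC13 and MUC4. COL1A1 carried most of that sum, with 19.4, 12.2 and 10.4 CPM, while VIM had 3.42, 3.71 and 3.70 CPM and PDGFRB had 0.843, 0.252 and 0.760 CPM. Of the 3 fibroblast markers analysed, COL1A1 reached 1 FPKM with either microRNA and none did in NC. DCN and COL1A2 were sought too, but neither symbol was among the genes listed, so they have no value here. The part of these transcripts in the mucin ratios was not tested. The immune markers summed to 1516, 1452 and 1600 CPM, nearly all of it lysozyme (LYZ), while the leukocyte gene PTPRC had 9 counts with miR-182-5p and none in the others.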

How the data were processed

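RNA sequencing of total RNA extracted with Trizol gave 1 library per group. Gene counts and FPKM were made and deposited by the authors in 1 table. Per the submitters' processing notes, cutadapt 1.9 and FastQC were used and the build is GRCm38, a mouse assembly, although the table's identifiers are human Ensembl identifiers. Of these, 97.3% are in GENCODE release 29 on GRCh38, and 86.9% of those share a start or end with it. For the aligner, counter, strand setting and FPKM length model, the answer is not given in the sources used here.

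From the counts, CPM over the library total and CPM ratios were computed, with exact Clopper-Pearson 95% intervals conditional on the sum of both counts (scipy 1.17.1), checked on simulated counts. These cover counting error only. A ratio of 1.5 was the limit, for genes with a mean of at least 0.5 CPM, and 3 counts the floor for a count of 0. Named are the 10 mucins, flanking and overlapping genes, and from each list the members past the limit or else up to 4 of highest level. Not every one is described. Members and lists were chosen with earlier results of these data known. Other scalings used R 4.3.3, edgeR 4.0.16 and DESeq2 1.42.0 for their factors alone. Promoter and microRNA sequences are from RefSeq.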

Additional observations from a re-analysis of the deposited data

How the results depend on the processing

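No paired analysis was possible because each group has 1 library, and for the same reason no replicate could be left out. The 3090 genes past 1.5-fold for miR-182-5p over NC (1870 for miR-183-5p over NC, 2049 for miR-182-5p over miR-183-5p) became 1146 (748, 761) at 2-fold and 6849 (4037, 4569) when a ratio 25% above 1, or its inverse, was the limit. They became 8623 (7223, 7368) with at least 10 counts over the 3 libraries in place of the CPM limit, 824 (237, 284) with a mean of at least 5 CPM, and 708 (280, 311) on log2 of FPKM + 1. The number of mucins for miR-182-5p over NC, 1, became 0 at 2-fold, under TMM factors, under DESeq2 size factors and on log2 of FPKM + 1. It became 3 at the 25% limit, and 2 with at least 10 counts and with totals lacking mitochondrial genes. For miR-183-5p over NC, 0 became 1 at the 25% limit and 1 with at least 10 counts. For miR-182-5p over miR-183-5p, 2 became 0 at 2-fold and on log2 of FPKM + 1, 1 under TMM and under DESeq2 factors, and 3 with at least 10 counts, where MUC2 is the 1 lower. The wider or stricter limits change these counts by their construction; with 10 counts MUC2, MUC5B and MUC6 enter. The deposited FPKM moved none of the 27 mucin ratios beyond its interval, TMM 4, DESeq2 factors 4, nuclear totals 3 and FPKM + 1 10, and no called value changed sign. Over the scalings MUC1 ranged from 1.45 to 1.57 and MUC13 from 1.40 to 1.51 for miR-182-5p over NC, and MUC5AC from 0.801 to 0.869. For the scalings the median of all measured genes shifted by at most 0.07 on the log2 scale. Depth limits MUC2, MUC5B, MUC6 and MUC16, and with 1 library a group the spread between cultures is unknown.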

Other observations

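Other genes of gastric and gland-type mucous cells were present at very different levels. AQP5, a water channel of secretory glands, had 27.9 FPKM with miR-182-5p, 28.6 with miR-183-5p and 26.5 in NC. The trefoil peptide gene TFF1, usually made together with MUC5AC in the stomach, had 10 counts with miR-182-5p and 44 with miR-183-5p, against 10 in NC. Its CPM ratio of miR-183-5p to NC was 4.21 (2.09 to 9.38), where MUC5AC was at 0.825. TFF2, the trefoil peptide that accompanies MUC6, had 0 counts in both microRNA libraries and 11 in NC. A4GNT, a glycosyltransferase of the same gland cells, had the opposite pattern, with 15 counts in both microRNA libraries and 0 in NC. The pepsinogen gene PGC had 18 counts with miR-182-5p and 22 with miR-183-5p, against 12 in NC. TFF1, TFF2, A4GNT and PGC each had a mean under 0.5 CPM. Their differences rest on few counts, and they enter none of the main counts of genes past 1.5-fold. SPDEF, a transcription factor of goblet cells, had 13.8 FPKM with miR-182-5p and 13.8 with miR-183-5p, against 17.8 in NC. Its CPM ratios to NC were 0.768 (0.724 to 0.815) and 0.764 (0.722 to 0.810), below 1 in both libraries, as were those of MUC5AC. Among the other goblet markers few ratios were resolved from 1. FCGBP was at 1.63 (1.46 to 1.83) times NC with miR-182-5p and at 1.12 (0.989 to 1.26) with miR-183-5p. ATOH1, at 1.05 (0.851 to 1.30) and 1.18 (0.969 to 1.45), had intervals that include 1. So did TFF3, at 0.982 (0.827 to 1.17) and 0.943 (0.796 to 1.12). MUC2 was at 2.66 and 4.44 times NC, on 11 counts in NC and a mean under 0.5 CPM.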
